A study of Mus musculus with 24 samples.

Results

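The comparison described here is that of Zbtb16 null with wild-type (WT) KIT+ spermatogonia, the differentiating spermatogonia (dSPG) of the postnatal day 7 mouse testis. Its members are the 6 libraries that the labels give as KIT+ and as Zbtb16 null or WT, 3 of each, out of 24 libraries in the series. The null mice were homozygous for the luxoid allele (Zbtb16 lu/lu), and the controls were labelled WT on the same C57BL/6J background. The methods also mention heterozygous littermates (Zbtb16 +/lu) as controls, and whether any of these pools held such mice is not given by the labels. Cells were taken with magnetic beads against KIT (CD117), and the testes of 3 mice were pooled for each isolation. The other 6 libraries of the same table are THY1+ undifferentiated spermatogonia (uSPG) of the same genotypes and age, and they are used below only to show where the KIT+ cells differ.

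ZBTB16 (PLZF) is a transcription factor with a BTB domain and zinc fingers that marks undifferentiated spermatogonia and is needed for their long-term maintenance. Spermatogonia differentiate in response to retinoic acid, which acts through RAR and RXR nuclear receptors. They then gain the receptor tyrosine kinase KIT and express Stra8, lose ZBTB16, and divide several times before meiosis. Steroid-producing Leydig cells of the testis interstitium also carry KIT, so a bead sort against KIT can hold them beside germ cells.

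Values are FPKM, fragments per kilobase of transcript scaled to the mapped reads of the library. Each KIT+ library held an estimated 25.94 to 35.17 M reads and 15707 to 16057 genes at 1 FPKM or more, and 36.9% to 49.7% of its FPKM fell to its top 10 genes. Changes are given as log2 of (FPKM + 0.1), null against WT, from a limma fit in which libraries of the same replicate number form a block. A gene is called where the adjusted p is at most 0.05 and the change is at least 1.5-fold.

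The targeted gene and the sorting markers were examined before other genes. Zbtb16 (chr9:48654297-48836222, minus strand, GRCm38) was at 14.4, 23.0 and 17.1 FPKM in the WT KIT+ libraries and at 6.69, 6.59 and 6.11 FPKM in the null ones. The groups did not overlap, and Zbtb16 fell by 1.45 on the log2 scale (SE 0.129, limma adjusted p = 0.00268). Transcript was therefore still counted in every null library. Kit was at 55.0, 69.7 and 52.5 FPKM in WT and at 51.7, 74.8 and 52.6 FPKM in the null, and these overlapped (log2 change 0.01, SE 0.146, limma adjusted p = 0.986). Kit was lower, at 13.8 to 21.1 FPKM, in the THY1+ libraries of either genotype. Thy1 was at 0.156 to 0.666 FPKM in the KIT+ libraries and at 3.29 to 4.67 FPKM in the THY1+ ones. The fraction labels thus went with the sorting markers in all 12 libraries.

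The KIT+ libraries held RNA of somatic cells beside that of germ cells. The 10 Leydig cell markers, steroidogenic enzymes and hormones such as Hsd3b1, Cyp17a1 and Insl3, summed to 1353, 2441 and 2079 FPKM in WT and to 2253, 3059 and 3322 FPKM in the null. In WT THY1+ libraries the same genes summed to 122.1 to 158.8 FPKM. The 14 markers of all germ cells, among them Dazl and Ddx4, summed to 1671 to 1935 FPKM in WT KIT+ libraries and to 1303 to 1764 FPKM in null ones. Genes of germ and somatic cells are therefore kept apart below. In these bulk libraries fewer cells of a type and less RNA per cell cannot be told apart.

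Of 22374 genes tested, 513 were called (2.29%), with 351 higher in the null (1.57%) and 162 lower (0.724%). The median change of all genes was 0.01 on the log2 scale, with 11400 positive and 10973 negative. All 513 calls had the same sign in the 3 pairs of equally numbered libraries. They were selected in a fit blocked on these numbers, so this follows largely from the selection and is no separate support. In 275 of the 351 and 146 of the 162 the libraries of the groups did not overlap, while 17.5% of all tested genes showed no overlap. Most calls were small: the median absolute log2 change was 0.79 among those higher and 0.84 among those lower, and 84 and 46 of them reached 2-fold. By class, 9 of 122 tested germ cell genes were called (7.38%), 7 of them lower, against 5 of 129 somatic genes (3.88%), all 5 higher. The somatic genes include 15 keratins, which hold 2 of these 5 calls, Krt18 and Krt24, while the 114 genes of the other somatic lists hold 3. The study reports Krt18 as a gene that ZBTB16 binds and attenuates in uSPG, so its class here does not tell which cells held its RNA. Genes of no list made up most of the calls, 322 higher and 148 lower out of 21508 (2.19%).

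The count of calls depended strongly on the fit. Without the replicate block 58 genes were called. Leaving out a single library gave 59, 71 and 47 calls for WT replicates 1, 2 and 3 and 33 and 39 for null replicates 2 and 3, whereas leaving out null replicate 1 gave 990. Of the 513 calls, 24 were made in all 6 of these fits, and 415 were made in none of the 5 fits that retained null replicate 1. All 513 retained their sign in the 6 fits, which reuse most of the libraries that selected them, so this is no separate support. A call named below that is not among the 24 was thus lost without at least 1 of the 6 libraries, and for most of those named it was made only without null replicate 1. With the 14 germ cell markers set to no change, 413 genes were called higher and 19 lower.

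**Figure D1:**
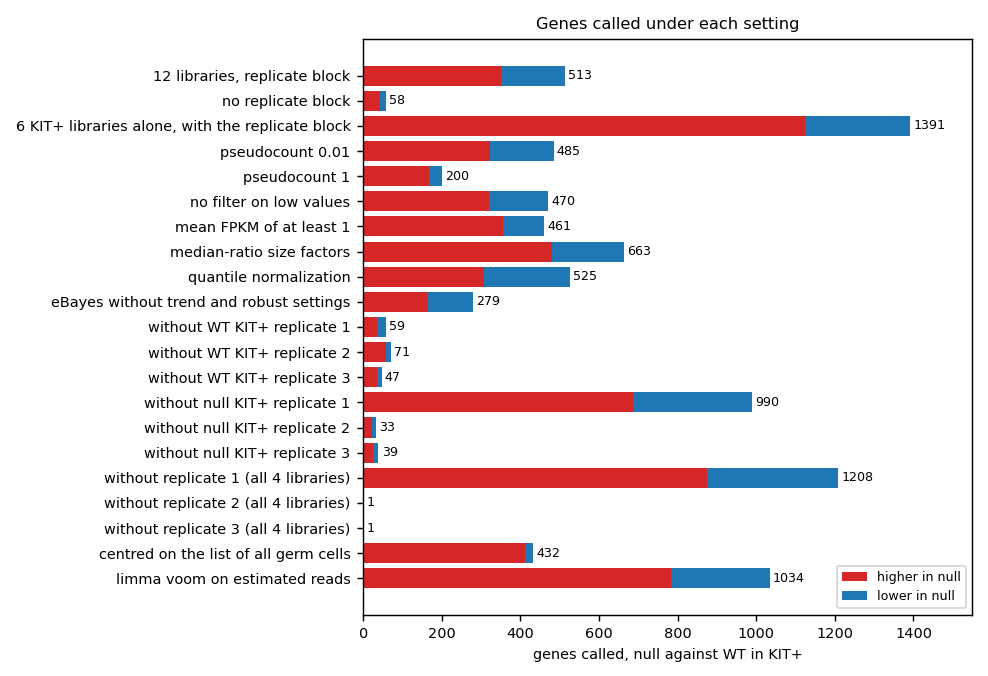
Genes called between null and WT KIT+ libraries (horizontal axis, number of genes) under each setting, with genes higher in the null in red and lower in blue; the total stands beside each bar. The bar of the 12 libraries with the replicate block ends at 513, that without the block at 58, and those that leave out replicate number 2 or 3 at 1.

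Among markers of undifferentiated spermatogonia, 24 genes tested, 4 fell and 1 rose, and the median change was 0.06. Neurog3, a transcription factor of cells about to differentiate (chr10:62133090-62134763), was at 3.89, 4.95 and 3.50 FPKM in WT and at 2.23, 1.61 and 1.43 FPKM in the null. All null libraries lay below all WT libraries, a fall of 1.19 on the log2 scale (SE 0.144, limma adjusted p = 0.0103). The T-box gene T, the LIM homeobox gene Lhx1 and the paired box gene Pax7 fell as well, by 0.93, 0.73 and 0.69 on the log2 scale, from low levels of 0.516, 0.515 and 0.187 FPKM. T was at 0.470, 0.712 and 0.366 FPKM in WT and at 0.183, 0.246 and 0.217 FPKM in the null, without overlap, while Lhx1 overlapped between the groups. These 4 genes were also called lower in null THY1+ cells.

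Id4, an inhibitor of DNA binding that marks stem-like spermatogonia, went the other way. It was at 1.56, 3.01 and 2.61 FPKM in WT and at 4.53, 4.28 and 4.31 FPKM in the null, so every null library exceeded every WT library (log2 change 0.89, SE 0.190, limma adjusted p = 0.0406). The call was made in none of the 6 fits with a library left out. Egr4 and Utf1 had larger changes of 1.06 and 0.96 that missed the threshold, with limma adjusted p = 0.055 for Egr4 and 0.0519 for Utf1. Gfra1 and Ret, the receptor complex for the niche factor GDNF, had changes of 0.13 and 0.04. The list held 14 genes with positive and 10 with negative changes, and its median was 0.41 in pair 1 against -0.11 and -0.07 in pairs 2 and 3.

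Of the genes that mark differentiation, Stra8 and Lmo1 fell in null KIT+ cells while Kit did not pass the test. Stra8, the retinoic acid-induced gene that opens the way to meiosis (chr6:34920163-34939344), was the most abundant marker of this list. Its levels were 130, 90.7 and 123 FPKM in WT and 71.5, 48.2 and 64.4 FPKM in the null, with no overlap and with pairwise log2 changes of -0.86, -0.91 and -0.93. The fitted fall was 0.90 on the log2 scale (SE 0.142, limma adjusted p = 0.0225). The LIM domain gene Lmo1 fell by 0.67 on that scale, from 24.2, 19.3 and 21.0 to 17.5, 10.8 and 12.8 FPKM. Over the alternative settings the change ran from -1.05 to -0.68 for Stra8. For Lmo1 it ran from -0.82 to -0.45, at its weakest below 1.5-fold. Of the 8 markers of differentiating spermatogonia, 6 had negative changes and 2 were called, and the list's median was -0.25. Sohlh1 and Sohlh2, basic helix-loop-helix factors of early differentiation, had changes of -0.24 and -0.29 that did not pass.

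**Figure D2:**
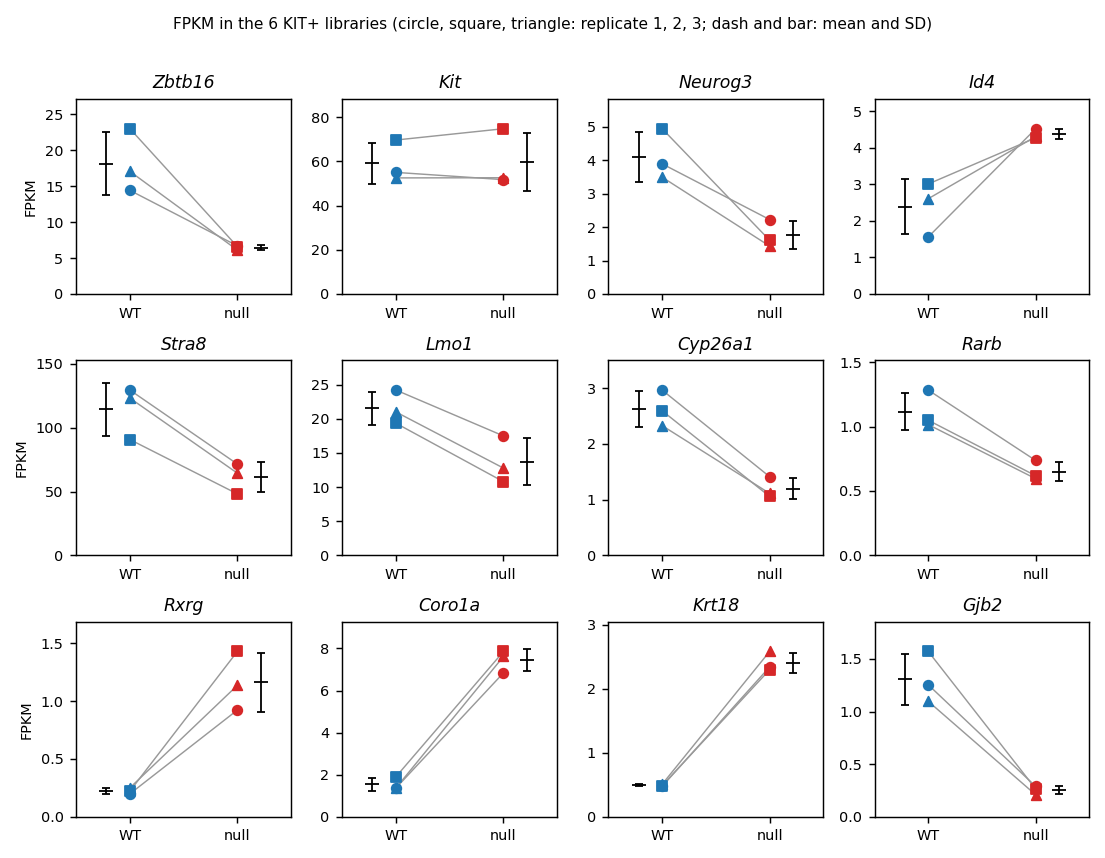
FPKM (vertical axes, from 0) of 12 genes in the 6 KIT+ libraries, WT in blue and null in red, with lines joining equal replicate numbers and a dash and bar for mean and SD (n = 3). Kit overlaps between the genotypes, whereas the null libraries of the other 11 genes all lie on 1 side of the WT libraries.

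Genes of retinoic acid signalling did not move together. Of 18 tested, 2 fell and 1 rose, and the median change was 0.15. Cyp26a1, which degrades retinoic acid and is itself induced by it, was at 2.97, 2.60 and 2.33 FPKM in WT and at 1.41, 1.06 and 1.11 FPKM in the null. It fell by 1.08 on the log2 scale (SE 0.106, limma adjusted p = 0.00381), and the call was made with any library left out and without the block. Rarb, a retinoic acid receptor whose gene is also induced by the ligand, fell by 0.69 from 1.28, 1.05 and 1.01 to 0.737, 0.618 and 0.595 FPKM. The null libraries of both genes lay below all WT libraries.

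The receptor partner gene Rxrg rose, from 0.199, 0.223 and 0.251 FPKM in WT to 0.923, 1.43 and 1.14 FPKM in the null (log2 change 1.95, SE 0.188, limma adjusted p = 0.00369). The other receptors Rara, Rarg, Rxra and Rxrb had changes between -0.16 and 0.17. Crabp1, a cytosolic retinoic acid binding protein, and Aldh1a1, a retinaldehyde dehydrogenase, were the most abundant genes of the list, with changes of -0.43 and 0.54 that did not pass. Aldh1a1 was at 425, 493 and 538 FPKM in WT and at 578, 765 and 779 FPKM in the null, and it fell by 0.73 on the log2 scale in null THY1+ cells.

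Cyp26a1 and Rarb share a retinoic acid response element just before a RefSeq start site, and the element is shown because both genes fell. For Rarb this start site lies inside the gene (chr14:16430839-16819156, minus strand). The FPKM of Rarb are those of the whole gene, so its fall cannot be assigned to transcripts from that site. The promoters of RefSeq genes (GRCm38.p6, 250 bases before to 50 after the start) were searched on both strands for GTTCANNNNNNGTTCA, a direct repeat of GTTCA with 6 bases between the copies. A match was found for 24 of 27025 genes (0.0888%), and among the 11 of them tested in KIT+ cells 2 were called lower, these 2, and 0 higher. None was found in the windows of Stra8, Neurog3, Id4 or Rxrg. The motif was chosen after the values were seen, and a match is a description of sequence and not of binding. The 30 bases around each match are given on the strand that reads GTTCA, with both copies in capitals, for Cyp26a1 (chr19:37697769-37697798, minus strand, 32 bases before the start site) and for Rarb (chr14:16575506-16575535, minus strand, 52 bases before the internal start site).
Cyp26a1: caaattaGTTCAcccaaaGTTCAtctttaa
Rarb: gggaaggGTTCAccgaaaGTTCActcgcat

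Broader germ cell lists had small negative medians and 0 calls. Of the 14 markers of all germ cells, 13 had negative changes and 0 were called, with a median of -0.25. Dazl, an RNA-binding protein required throughout the germ line, was at 569, 423 and 531 FPKM in WT and at 480, 284 and 437 FPKM in the null (log2 change -0.37, limma adjusted p = 0.0787). Among 26 meiosis genes 21 had negative changes, 0 were called and the median was -0.27, and among 21 genes of the piRNA pathway 14 were negative with 0 calls and a median of -0.13. These medians were referred to the total of mapped reads. The 114 genes of the somatic lists other than keratins summed to 2123, 3880 and 3085 FPKM in WT and to 3410, 5255 and 5093 FPKM in the null, higher in each of the 3 pairs, and the part of this in the lower germ cell values was not tested. With germ cell markers set to no change the medians of the 3 germ cell lists were -0.02, -0.05 and 0.09, the first of which this setting itself places near 0.

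Spermatid genes, of which 14 were tested, included 1 that rose and 1 that fell. Ldhc, the germ cell lactate dehydrogenase, rose from 0.533, 0.809 and 1.01 to 1.78, 1.65 and 1.84 FPKM. Tnp1, which replaces histones in elongating spermatids, fell by 1.12 on the log2 scale, from 2.35, 2.58 and 2.67 to 1.11, 1.04 and 1.2 FPKM. Tdrd5, a tudor domain protein of the piRNA pathway, was higher by 0.55, below 1.5-fold. Exd1, a piRNA biogenesis factor, was among the calls that held in all 6 fits, at 3.92 ± 0.193 FPKM in WT and 1.89 ± 0.302 FPKM in the null (SD, n = 3), without overlap.

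Few cell cycle genes passed the test, although most had small negative changes. Among 21 DNA replication genes 20 had negative changes and 0 were called, and among 20 mitosis genes 18 were negative and 1 was called. Both medians were -0.22, and both were 0.00 with the germ cell markers set to no change. Cenpf, a kinetochore protein, was the called gene, at 107, 88.8 and 105 FPKM in WT and 74.8, 53.9 and 72.1 FPKM in the null. Its change ran from -0.70 to -0.37 over the alternative settings, at its weakest below 1.5-fold. Mcm6, a subunit of the replicative helicase, had an adjusted p = 0.0476 in limma but a change of only -0.26. Of the G1 cyclins and CDK inhibitors 0 of 15 were called, and Ccnd1, which drives entry into the cycle, was at 30.3, 28 and 27.4 FPKM in WT and 29.5, 22.7 and 19 FPKM in the null (log2 change -0.29).

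The 12 genes that rose most, all with a mean of at least 1 FPKM in the null, were led by Coro1a, an actin-binding coronin. It was at 1.37, 1.91 and 1.38 FPKM in WT and at 6.84, 7.86 and 7.62 FPKM in the null (log2 change 2.2, SE 0.0926, limma adjusted p = 2.94e-05). Krt18, a keratin of simple epithelia, followed with 0.476, 0.487 and 0.508 against 2.34, 2.30 and 2.58 FPKM (log2 change 2.08, SE 0.116, limma adjusted p = 0.000186). The spread between libraries of a genotype was small beside these differences. Rxrg, the small heat shock protein gene Hspb3 and Nsg2, of neuronal vesicle traffic, rose by 1.95, 1.82 and 1.65 on the log2 scale. The remaining genes, 2010005H15Rik, Dmrtc1b, Pla2g7, Ly6c1, Cyfip2, Chit1 and Cd7, rose by 1.19 to 1.42. Pla2g7, which inactivates platelet-activating factor, was the most abundant of the 12, at 5.71, 6.18 and 7.24 FPKM in WT and 14.2, 13.7 and 16.6 FPKM in the null. Some of the 12 were more abundant in the other fraction. Mean levels in null THY1+ against null KIT+ libraries were 43.6 against 7.44 FPKM for Coro1a and 15.2 against 2.41 FPKM for Krt18. Others, such as Ly6c1 (0.256 against 2.01) and Dmrtc1b (0.750 against 1.25), went the other way.

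The 12 genes that fell most were led by Gjb2, which encodes the gap junction protein connexin 26. It was at 1.25, 1.57 and 1.1 FPKM in WT and at 0.288, 0.264 and 0.209 FPKM in the null, and fell by 1.98 on the log2 scale (SE 0.165, limma adjusted p = 0.00225). Zbtb16, the phosphatase gene Ptpn20 and Neurog3 came next, with Ptpn20 at 3.23, 2.97 and 3.27 FPKM in WT and 1.56, 1.27 and 1.08 FPKM in the null. Sall1, a zinc finger factor related to Sall4, fell by 1.12, from 1.54, 1.92 and 1.46 to 0.734, 0.771 and 0.592 FPKM. Tnp1, Cyp26a1, Cpne7, Atg9b, the Notch target Hes5, Exd1 and Cfap53, a protein of cilia and flagella, fell by 0.96 to 1.12. Every one of the 12 was lower in all null libraries than in any WT library, as the rule for naming them required.

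The 24 genes called with each library left out in turn form a small core. The 15 that were higher are Coro1a, Cutal, Krt18, Rxrg, D030018L15Rik, Cd200r2, Nsg2, Ap3b2, Pla2g7, Cyfip2, Rfx8, Rsph9, Sgk1, Gpr180 and Gsto1. The 9 that were lower are Zbtb16, Gjb2, Ptpn20, Cyp26a1, Exd1, EU599041, Zfp936, Gm2381 and Gm7221. EU599041, Zfp936, Gm2381 and Gm7221 lie in a single stretch of chromosome 7 (chr7:42579783-43226842). They are therefore not clearly separate observations. All but Cyfip2 were also called without the block. Sgk1, a kinase induced by serum and glucocorticoids, was at 2.53, 3.09 and 3.03 FPKM in WT and 5.25, 5.31 and 5.89 FPKM in the null. Zfp936, a zinc finger gene, was at 24.4, 21.4 and 23.5 FPKM in WT and 15.1, 12.3 and 13.1 FPKM in the null. In the THY1+ cells all 15 of the higher genes were called higher, and 3 of the 9 lower genes, Zbtb16, Gjb2 and Ptpn20, were called lower. The part of undifferentiated cells within the KIT+ fraction in these shared changes was not tested. None of the 24 was in a germ cell list, and of the somatic lists only the keratins held 1, Krt18. The germ cell lists leave out Zbtb16, which marks undifferentiated spermatogonia, and Exd1, a piRNA biogenesis factor, so the core is not without germ cell genes.

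Lists of somatic cell markers had positive medians in null KIT+ libraries, with few calls. The medians were 0.53 for 10 Leydig cell genes, 0.34 for 19 Sertoli cell genes, 0.69 for 15 peritubular and stromal genes, 0.72 for 19 extracellular matrix genes and 0.57 for 12 endothelial genes, against 0.01 for all genes. The numbers with positive changes were 9, 17, 14, 18 and 11. The calls among these 75 genes were Star, Acta2 and Myl9. Star, which brings cholesterol into mitochondria for steroid synthesis, was at 80.8, 114 and 60.5 FPKM in WT and at 164, 132 and 145 FPKM in the null (log2 change 0.83, SE 0.172, limma adjusted p = 0.0393). Hsd3b1, the most abundant Leydig gene, was at 452, 850 and 885 FPKM in WT and at 790, 1192 and 1426 FPKM in the null, which overlap (log2 change 0.66, limma adjusted p = 0.0543).

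The smooth muscle genes Acta2 and Myl9 rose by 0.72 and 0.69, and Acta2 overlapped between the groups, with WT replicate 3 above null replicate 1. The matrix genes summed to 327, 766 and 416 FPKM in WT and to 490.5, 1253 and 699 FPKM in the null, with WT replicate 2 above null replicates 1 and 3. Col3a1, a fibrillar collagen, was at 70.6, 171 and 96.7 FPKM in WT and at 112, 285 and 167 FPKM in the null, so that replicate 2 was the highest in both. The difference was 0.73 with limma adjusted p = 0.107.

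Blood cell markers showed 0 calls, and those of macrophages, T cells and mast cells were at low levels. The 14 macrophage genes tested summed to 7.49 to 9.43 FPKM in WT and 7.21 to 19.4 FPKM in the null, with Lyz2 at 8.40 FPKM in null replicate 3 and at or below 1.52 in the other libraries. The 11 T cell genes summed to 2.14 to 3.09 FPKM in WT and 1.89 to 2.83 FPKM in the null, and the 9 mast cell genes to 3.72 to 5.18 and 4.70 to 5.51 FPKM. The 5 erythroid genes, all at 1 FPKM or more in WT, summed to 14.5 to 50.1 FPKM in WT and 26.6 to 144 FPKM in the null, the highest again in null replicate 3. Coro1a and Cd7, which are best known from leukocytes, rose while the medians of the macrophage and T cell lists were 0.07 and -0.32. Cd3g, part of the T cell receptor complex, was at 0.131, 0.0797 and 0.0633 FPKM in WT and was listed at 0 in null replicate 1, with 0.0626 and 0.0625 FPKM in the others.

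**Figure D3:**
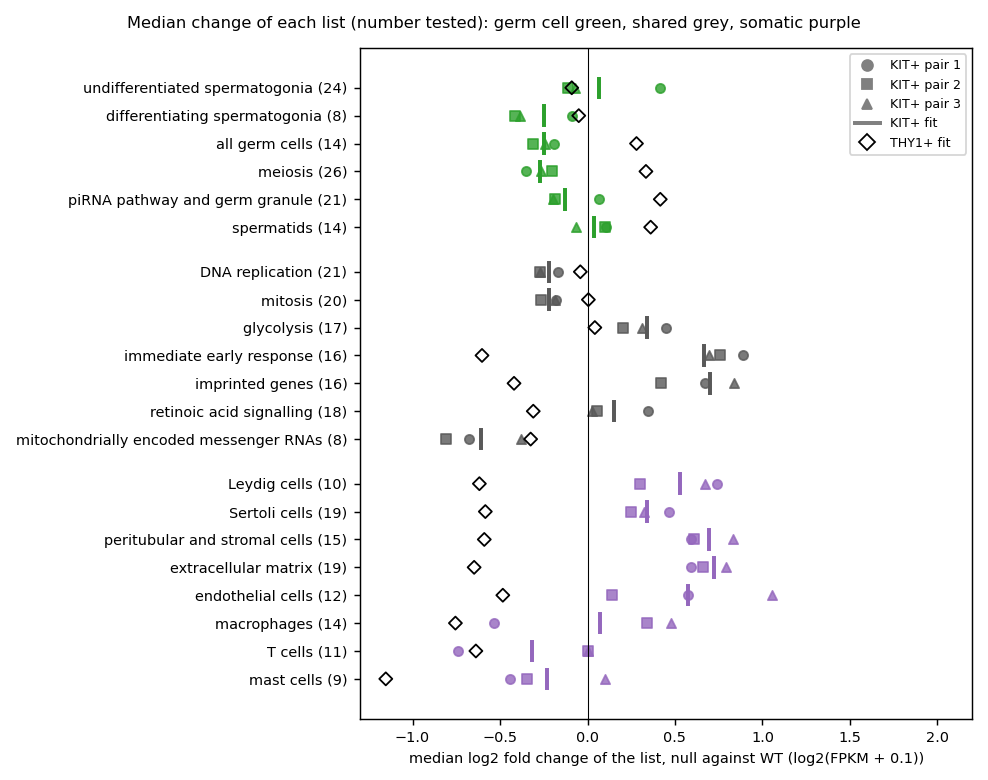
Median log2 fold change (null against WT) of each gene list, with the number of genes tested in parentheses: filled symbols are the 3 KIT+ pairs, vertical bars the KIT+ fit and open diamonds the THY1+ fit. Most germ cell lists (green) lie below 0 in KIT+ cells, at -0.25 for all germ cells, while the Leydig, Sertoli, peritubular, matrix and endothelial lists (purple) lie between 0.34 and 0.72 and are below 0 in THY1+ cells.

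Among programmes that germ and somatic cells share, few genes passed the test. All 16 immediate early genes, which respond within minutes to growth factors and to cell handling, had positive changes, with a median of 0.67 and 2 calls. Ier3 rose by 1.14, from 2.82, 3.32 and 5.03 to 7.77, 5.92 and 11.5 FPKM, and the antiproliferative gene Btg2 rose by 0.82. Fos, the most abundant, was at 62.5, 121 and 162 FPKM in WT and at 134, 237 and 280 FPKM in the null, an overlapping pair of groups (limma adjusted p = 0.0728). Of 17 glycolysis genes 14 had positive changes, the median was 0.34, and the lactate dehydrogenase gene Ldha was the only call, at 9.14, 15.8 and 14 FPKM in WT and 18.2, 23.4 and 25.8 FPKM in the null. These lists moved in the same libraries as the somatic markers above, and the part of somatic cells in them was not tested.

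All 8 tested transcripts of the mitochondrial genome had negative changes, with a median of -0.61 and 0 calls. mt-Co1, a subunit of cytochrome oxidase, was at 5772, 4184 and 6067 FPKM in WT and at 3752, 3302 and 5035 FPKM in the null, an overlap (log2 change -0.41, limma adjusted p = 0.0615). Nuclear genes of oxidative phosphorylation had a median of -0.03 over 78 genes with 1 call, Cox6a2, and cytosolic ribosomal protein genes a median of 0.01 over 85 genes with 2 calls, Rpl39 and Rps4x. Replication-dependent histone genes, 58 tested, had a median of -0.28, with Hist1h1b and Hist1h2bh called higher and Hist1h4m lower. Reads of histone genes and of ribosomal protein genes can be split among near-identical copies, so these 5 values are uncertain.

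Imprinted genes, which are expressed from the allele of 1 parent, were the list with the most calls. All 16 had positive changes, the median was 0.70, and 7 rose: Dlk1, Snrpn, Plagl1, Mest, Meg3, Rian and Mirg. Over all 22374 genes tested, 11400 had positive changes and 1.57% were called higher. Mest was at 5.62, 11.5 and 8.53 FPKM in WT and at 11.4, 15.1 and 16 FPKM in the null (log2 change 0.77, SE 0.138, limma adjusted p = 0.0292). Snrpn was at 3.88, 4.37 and 4.91 FPKM in WT and at 7.64, 6.67 and 8.54 FPKM in the null, without overlap. It was the only one of the 7 that also rose in null THY1+ cells, by 1.54, whereas Meg3 and Plagl1 fell there. H19, the most abundant, had a change of 0.55 that did not pass (limma adjusted p = 0.0928). The summed level of the 16 genes was 159, 291 and 233 FPKM in WT and 240, 382 and 426 FPKM in the null, higher in each pair as the somatic sums were, and the part of somatic cells in it was not tested.

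The imprinted domain between Dlk1 and Dio3 on chromosome 12 (chr12:109452823-110281097) accounted for 4 of these calls. Dlk1, a membrane ligand related to Notch ligands, was at 3.26, 10.7 and 4.77 FPKM in WT and at 7.55, 18.3 and 10.3 FPKM in the null, an overlap across pairs with pairwise log2 changes of 1.19, 0.77 and 1.1. The noncoding RNAs Meg3, Rian and Mirg rose by 0.70, 0.69 and 0.62, with Rian at 11, 19.7 and 16.1 FPKM in WT and 18.7, 27.5 and 29 FPKM in the null. Rtl1, a retrotransposon-derived gene, rose by 0.59. Of the 63 genes of the domain that were tested, 60 had positive changes and 16 were called higher, with a median of 0.74, and 0 were called lower. The shares over all genes were 11400 of 22374 positive and 1.57% called higher. In THY1+ cells the median of the 63 was -0.41, with 1 called higher and 5 lower, and the interaction was called positive for 23. The domain was chosen after values had been seen.

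The 63 include 33 microRNA and 20 snoRNA loci. Many of these lie inside Meg3, Rian and Mirg, which are made as long transcripts, so they are not separate observations. Others lie outside the annotated spans of these 3 genes, among them Mir411 and Mir329, between Rian and Mirg. Whether those are separate observations was not tested. The 10 other genes all had positive changes, with a median of 0.69 and 7 calls. Among them Gm26945 lies within Rian, and Gm27596 and Gm26906 lie within the span of Meg3, Gm26906 on the opposite strand. These are not clearly separate observations either, and the 7 calls include Gm26945 and Gm26906. Total RNA libraries count precursor or host fragments at a hairpin and not mature microRNA. Mir377 held an estimated 1, 11 and 3 reads in WT and 13, 18 and 10 in the null. Mir411 held 2, 3 and 3 reads against 7, 7 and 9, and Mir329 held 0, 3 and 1 against 5, 11 and 5. Per estimated depth and summed over the libraries of a genotype, the ratio of null to WT reads was 2.97 for Mir377 (exact 95% interval 1.61 to 5.78), 3.13 for Mir411 (1.35 to 8.09) and 5.71 for Mir329 (1.93 to 22.9). These intervals cover counting error only.

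The mature sequences of these 3 loci are shown because they had the largest changes among the called microRNA loci of the domain that carry a Mir name. They come from RefSeq (GRCm38.p6), with the seed (bases 2 to 8) in capitals, and the 6 sequences have 6 distinct seeds.
mmu-miR-411-5p: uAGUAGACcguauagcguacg
mmu-miR-411-3p: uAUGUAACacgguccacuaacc
mmu-miR-329-5p: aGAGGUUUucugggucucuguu
mmu-miR-329-3p: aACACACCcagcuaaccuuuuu
mmu-miR-377-5p: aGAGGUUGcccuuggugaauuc
mmu-miR-377-3p: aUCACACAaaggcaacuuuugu

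**Figure D4:**
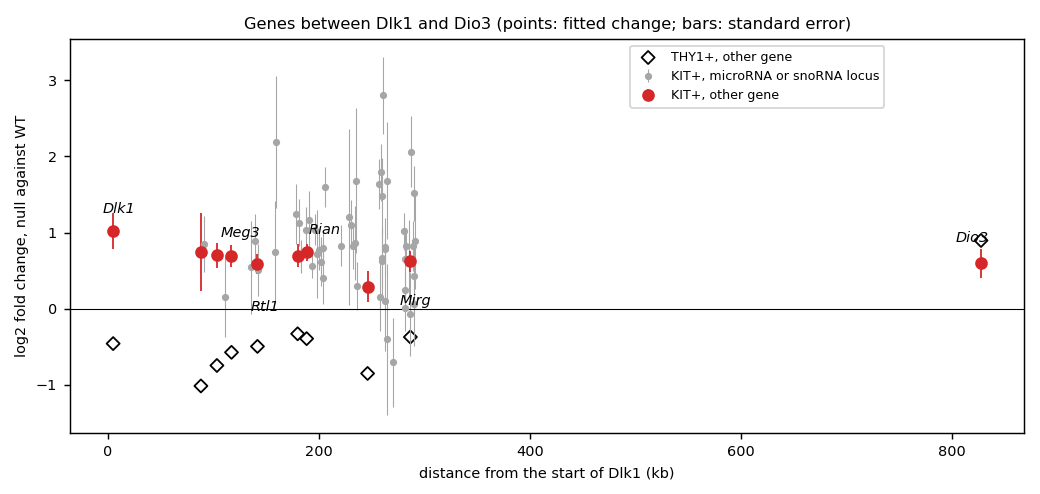
Fitted log2 fold change, null against WT (vertical axis), of the genes between Dlk1 and Dio3 by distance from the start of Dlk1 in kb; red and grey points with standard errors are KIT+ cells and open diamonds THY1+ cells. The 10 red points all lie above 0, with a median of 0.69, while the diamonds of these genes lie below 0 except that of Dio3.

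The KIT+ changes were set beside those in THY1+ cells of the same genotypes, where 1980 genes were called (8.85%), 976 higher in the null (4.36%) and 1004 lower (4.49%). A test of whether the genotype effect differed between the fractions called 2756 genes (12.3%), with 2027 more positive in KIT+ cells (9.06%) and 729 more negative (3.26%), and this difference is termed the interaction. Without the replicate block 7 genes had an interaction call, and without null KIT+ replicate 2 or 3 there were 68 and 112. Of the 351 genes higher in null KIT+ cells, 111 were also called higher in THY1+ cells, 32 were called lower there and 212 had an interaction call. The fitted THY1+ change was above 0 for 172 of the 351 and below 0 for 179. Of the 162 lower genes, 38 were also called lower in THY1+ cells, 2 were called higher and 51 had an interaction call.

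Germ cell and somatic lists had interaction calls of mostly opposite sign. In the germ cell lists 25 interaction calls were negative and 1 was positive, against 5 negative and 48 positive in the somatic lists. All 5 of these negative calls were keratins, and the other somatic lists had 0. In THY1+ libraries the 114 somatic genes other than keratins summed to 2968, 2816 and 2266 FPKM in WT and to 1514, 2257 and 1321 FPKM in the null. These sums were lower in each THY1+ pair, but higher in each KIT+ pair. With germ cell markers set to no change, 7358 interaction calls over all genes were positive and 68 negative. The part of the somatic sums in the interaction calls was not tested. Stra8 fell in KIT+ cells and had a change of -0.14 in THY1+ cells, an interaction of -0.76. Sycp3, part of the axis of meiotic chromosomes, had a change of -0.17 in KIT+ cells and rose by 0.64 in THY1+ cells, an interaction of -0.81. Star had changes of 0.83 and -0.51, an interaction of 1.33. Krt18 and Rxrg rose in both fractions but by less in KIT+ cells, with interactions of -1.43 and -1.32, while Coro1a rose more in KIT+ cells, with an interaction of 0.66.

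**Figure D5:**
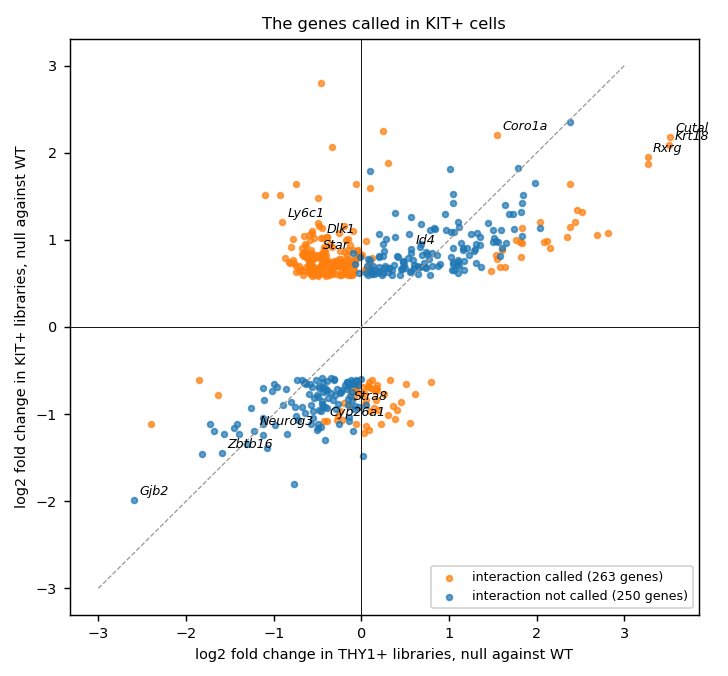
The 513 genes called in KIT+ cells, by log2 fold change (null against WT) in THY1+ libraries (horizontal axis) and in KIT+ libraries (vertical axis), orange where the interaction was called and blue where it was not; the dashed line marks equal change. Among the genes above 0 on the vertical axis, 172 lie to the right of 0 and 179 to the left.

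Further genes of uSPG named in the study behaved as follows. Nr5a2, a nuclear receptor gene, rose by 0.74, from 1.86, 2.87 and 2 to 3.71, 3.39 and 4.20 FPKM. Eomes, a T-box factor of long-term stem cells, was at 0.262, 0.267 and 0.220 FPKM in WT and 0.111, 0.153 and 0.0966 FPKM in the null, just above the threshold (limma adjusted p = 0.0519). Etv5, Bcl6b, Pou5f1, Fgfr1 and Rhox10 had changes between 0.12 and 0.58 and were not called. Gsta3 had a change of -0.64 that was not called either (limma adjusted p = 0.0645), and it was called lower in null THY1+ cells. The study names these genes for THY1+ uSPG or cultured cells, not for KIT+ cells.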

How the data were processed

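The RNA of bead-sorted cells was sequenced after removal of ribosomal RNA with a stranded kit. Per the labels and methods, the authors aligned reads to mm10 with Novoalign and tested them with DESeq2, and the deposited values are FPKM computed by the authors. FPKM are not counts, so log2(FPKM + 0.1) was analysed in limma 3.58.1 (R 4.3.3) instead. The 12 libraries of the table were fitted together with 4 group means and replicate number as a block (eBayes with trend and robust settings, 6 residual degrees of freedom), for genes with a mean of at least 0.1 FPKM, 22374 of 23177. The added 0.1 understates changes of low genes. Tests were two-sided with Benjamini-Hochberg adjustment. Replicates are pools of mice, and p-values measure the spread between libraries that is left after the block, estimated over the 4 groups together. All 4 libraries of a number carry the same request number in the labels, and deviations of the 18 same-numbered pairs correlated at -0.03 to 0.52 across genes (mean 0.33, 16 over 0.1), which is why the block was used.

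Estimated reads were recovered from steps in low FPKM and reference lengths, where 83.8% to 85.0% of low KIT+ values were whole within 0.1 read. They serve to mark genes with at most 3 reads and for exact Clopper-Pearson intervals, which cover counting error only, since reads carry no molecular identifiers. Genes named are the target and sorting markers, genes the study names, the 12 KIT+ calls with the largest rise and the 12 with the largest fall (mean of at least 1 FPKM in the higher group, no overlap, same sign in 3 pairs, no small or predicted RNA), up to 4 calls and the most abundant gene of each list, and 5 interaction calls of each sign. The 24 stable genes, Pax7, Egr4, Utf1, Gfra1, Ret, the list members named with no call and the genes of the chromosome 12 domain were named after their values were seen. The members of the comparison and the lists were chosen with earlier results of these data known. The fit was tested on simulated data.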

Additional observations from a re-analysis of the deposited data

Results flagged for a closer look

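A test of the interaction itself marked results where the genotype effect differed between KIT+ and THY1+ cells, 2756 genes in all, of which 72 are genes named in the text. The values below are KIT+ less THY1+ changes on the log2 scale, and without the replicate block only 7 genes had an interaction call. Summed FPKM of somatic genes other than keratins rose in null KIT+ and fell in null THY1+ libraries, and the part of this in the values below was not tested.

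Germ cell genes of this kind were more negative in KIT+ cells. These were Dppa3 (-2.18), Rhox10 (-1.13), Sycp3 (-0.81), Exd1 (-0.76), Stra8 (-0.76), Dazl (-0.67), Tex15 (-0.66), Lmo1 (-0.64) and Ddx4 (-0.61). Dppa3, a gene of primordial germ cells and early embryos, was at 2.36, 1.31 and 1.82 FPKM in WT KIT+ cells and at 3.41, 1.31 and 1.5 FPKM in null ones, and it rose in THY1+ cells. Other genes with negative values were Syt12 (-1.74), E230019M04Rik (-1.67), Atg9b (-1.44), Krt18 (-1.43), D030018L15Rik (-1.39), Snord1b (-1.36), Rxrg (-1.32), Cth (-0.94), Cpne7 (-0.84), Cyfip2 (-0.84), Snrpn (-0.76), Nsg2 (-0.73), Cyp26a1 (-0.65), Cutal (-1.35), Ap3b2 (-1.12), EU599041 (-0.89), Gm7221 (-0.89), Gm2381 (-0.80), Zfp936 (-0.77), Rsph9 (-0.77), Crabp1 (-0.75) and Zfy1 (-0.63).

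Genes with positive values included those of Leydig cells, Star (1.33), Hsd3b1 (1.30), Cyp17a1 (1.36) and Insl3 (1.40), of peritubular and stromal cells and their matrix, Dcn (1.47), Col3a1 (1.47), Acta2 (1.32) and Myl9 (1.26), of Sertoli cells, Clu (1.45), and of genes expressed in endothelium, Ly6c1 (2.11), Cd36 (1.94), Esam (1.87) and Cdh5 (1.43). Immediate early genes were Ier3 (1.59), Fos (1.52), Jund (1.40) and Btg2 (1.23). Imprinted genes were Plagl1 (1.55), Dlk1 (1.48), Meg3 (1.45), Rtl1 (1.08), Rian (1.02), Mirg (0.99), H19 (0.96) and Mest (0.88). The microRNA loci of the same domain, Mir329 (3.26), Mir411 (2.39) and Mir377 (2.39), rest on few reads. The remaining ones were AI427809 (1.88), Hoxd9 (1.5), Hoxd8 (1.34), Aldh1a1 (1.26), Fgfr1 (1.08), Hist1h1b (0.95), Hist1h2bh (0.84), Coro1a (0.66), Snord14e (0.62) and Ccnd1 (0.61).

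Ccl24 (1.80), Defb26 (-1.88) and Slc36a3os (-1.65) had at most 3 estimated reads in every WT KIT+ library, so these fitted values depend on the added 0.1 and are no folds. D030018L15Rik, at 0.0733, 0.0462 and 0.0236 FPKM in WT KIT+ libraries, was below the added 0.1 there. Its KIT+ change ran from 0.457 to 3.19 over the other settings. Cutal was near 0.1 as well, at 0.172, 0.140 and 0.0832 FPKM, so the values of both genes also depend on it.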

How the results depend on the processing

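Counts of calls in KIT+ cells, in the interaction and in THY1+ cells were 513, 2756 and 1980. With no replicate block, so without the pairing by number, the counts were 58, 7 and 890. Fitting the 6 KIT+ libraries alone with the block gave 1391 KIT+ calls, a pseudocount of 1 gave 200 in KIT+ and 834 in THY1+ cells, a mean FPKM of at least 1 gave 1214 in THY1+ cells, and eBayes without trend and robust settings gave 279 in KIT+ cells. Voom on estimated reads and centring on the germ cell list were chosen after seeing the data. Voom gave 1034 KIT+ calls. Centring moved the median of all genes from 0.01 to 0.23 and gave 432 KIT+ calls (95.6% higher against 68.4%), 7426 interaction calls and 4104 THY1+ calls. Leaving out each KIT+ library gave 33 (without null replicate 2) to 990 (without null replicate 1) KIT+ calls and 68 to 3435 interaction calls, with the same lowest and highest library. Leaving out all 4 libraries of number 1, 2 or 3 gave 1208, 1 and 1 KIT+ calls, 2086, 0 and 0 interaction calls and 1060, 151 and 185 THY1+ calls. Fewer samples entered the fits that left libraries out, and KIT+ calls rose in some of these fits and fell in others. No cause of the shifts was tested.

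Signs reversed for 16 named genes, 0 of them called in KIT+ cells. Quantile normalization gave -0.056 for Cth, and a pseudocount of 0.01 gave -0.672 for Defb26. Centring gave 0.085 for Dnmt1, 0.025 for Mael and Ndufb9, 0.048 for Sycp3, 0.008 for Top2a, 0.104 for Uchl1, 0.042 for Zbtb43 and 0.184 for Zpbp. Over the fits without 1 KIT+ library the changes ran from -0.077 to 0.245 for Bcl6b, -0.076 to 0.138 for Cth, -0.539 to 0.505 for Defb26, -0.09 to 0.237 for Dppa3, -0.103 to 1.128 for Hbb-bs, -0.011 to 0.09 for Hspa8, -0.087 to 0.052 for Kit, -0.012 to 0.024 for Rpl4 and -0.109 to 0.002 for Zpbp. Without the libraries of a number, Bcl6b was at -0.043, Dppa3 at -0.128 and Cth at -0.092 (number 1), Kit at -0.043 (number 2), and Cth at -0.055, Defb26 at -0.517, Hspa8 at -0.033, Rpl4 at -0.021 and Zpbp at 0.004 (number 3).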

Other observations

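In null KIT+ cells the Y-linked zinc finger genes Zfy1 and Zfy2 were both called lower. Zfy1 was at 3.64, 2.99 and 3.09 FPKM in WT and at 2.25, 1.66 and 1.79 FPKM in the null, and Zfy2 at 1.69, 1.27 and 1.35 against 1.15, 0.690 and 0.879 FPKM. Neither gene overlapped between the groups, reads can be split between the pair of near-identical copies, and both were picked after their values were seen. Hoxb7 and Hoxd9, homeobox genes of body axis patterning, rose by 1.12 and 0.86 among 24 Hox genes tested, of which 18 had positive changes. Hoxb7 was at 0.954, 1.14 and 0.702 FPKM in WT and at 2.52, 2.06 and 1.80 FPKM in the null. Of 16 Rhox genes, X-linked homeobox genes, 12 had negative changes and 0 were called.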
